A study of Mus musculus with 12 samples.

Results

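The effect of deleting the aryl hydrocarbon receptor (AhR) in type II alveolar epithelial (AT2) cells was examined in cells exposed to cockroach extract (CRE), an allergen preparation. All 6 libraries of CRE-treated cells were compared, out of 12 libraries in all, and they were chosen by their labels alone. AT2 cells came from AhRf/f mice, whose AhR gene carries loxP sites but is intact, and from Sftpc-Cre;AhRf/f mice, which also express Cre recombinase under the surfactant protein C (Sftpc) promoter and whose libraries carry the genotype label KO. They are called AhRf/f cells and knockout cells here, and Cre (the recombinase) is not CRE (the extract). Both alleles were floxed in every mouse, so that by design the groups differ in the Cre transgene, and no group had Cre without floxed alleles. The Sftpc-Cre and AhRf/f lines came from different sources, and the study does not say whether the AhRf/f mice were littermates. The part that other differences between the lines have in the values was not tested. The mice were on the C57BL/6 background and 6 to 8 weeks old. Other cell types were depleted with antibodies to CD16/32, CD45, Ter119 and Sca-1 during isolation. The cells were cultured on collagen for 24 h with CRE at 50 µg/ml, and parallel cultures without CRE (PBS) gave the other 6 libraries, with 3 libraries in each of the 4 groups. The labels do not say whether the 3 libraries of a group came from separate mice, so the p-values measure the spread between these libraries, which may be technical.

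AhR is a cytosolic receptor held by chaperones such as HSP90. On binding a ligand it enters the nucleus, pairs with ARNT and binds DNA at a core motif, from which genes of xenobiotic metabolism such as Cyp1a1 and Cyp1b1 and its own repressor Ahrr are induced. In barrier epithelia it is known as a sensor of pollutants, tryptophan metabolites and microbial products.

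The deposited counts of CRE-treated cells summed to between 73326817 and 78722441 per library. Values are given as CPM, counts per 1000000 counts of the library after TMM scaling. A gene was called when its p in the quasi-likelihood test of edgeR, adjusted by Benjamini-Hochberg over the 20612 genes tested, was below 0.05. As a check of the tissue, the AT2 markers Sftpc (3216 to 6492 CPM) and Sftpb (443 to 863 CPM) were high in all 6 libraries, and none of 18 AT2 markers was called. Markers of other cells were also present. Scgb1a1, a secretory protein of club cells, was at 3959 to 6662 CPM. The summed level of 14 leukocyte markers ran from 20.4 to 399.5 CPM in AhRf/f cells and from 69.1 to 327 CPM in knockout cells, and it was highest in replicate 1 of both genotypes. In bulk RNA, fewer cells of a type and less RNA per cell cannot be told apart.

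The targeted gene Ahr (ENSMUSG00000019256, chromosome 12, 35497974 to 35535038 of GRCm38, minus strand) was at 56.2, 50.5 and 50.1 CPM in AhRf/f cells and 51.5, 37.7 and 49.5 CPM in knockout cells. The groups overlapped, with replicate 2 of the knockout cells lowest. The log2 fold change was -0.18 (SE 0.12, exact two-sided permutation p = 0.4, where 0.1 is the smallest p that 3 against 3 libraries can give). The count covers the whole gene and does not separate the floxed exon from the rest, so it is no check of the deletion. The other genes of the receptor complex were close to level as well. None of the 13 members of the AhR machinery list (receptor, partners Arnt and Arnt2, chaperones and coactivators) was called by edgeR or met the limma-trend criterion given further on. Before adjustment 1 had an edgeR p below 0.05 (5.95% of all genes tested did), and the log2 fold changes of the list lay between -0.30 and 0.11.

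Between the genotypes with CRE, 35 genes were called, which is 0.17% of the genes tested. In knockout cells 12 were higher (0.0582%) and 23 lower (0.112%), and the median log2 fold change over all genes was -0.0034. Among genes with counts in both groups, the lower ones with the largest fold changes were Cyp1b1, a cytochrome P450, Agr3, a protein disulfide isomerase, Ces1g, a carboxylesterase, and Lpar4, a lipid receptor. The higher ones were Gm10184, a predicted gene, Zbtb22, a zinc finger gene, Efcab7 and Abca5, an ABC transporter. Before adjustment 1227 genes (5.95%) had a p below 0.05, 606 of them higher (2.94%) and 621 lower (3.01%). For 2266 genes (11%) the lowest library of one genotype lay above the highest of the other, with 5.56% higher and 5.43% lower. All 35 called genes were among the latter. A second criterion, the one named in the study's methods, asks for a limma-trend p below 0.05 before adjustment and a log2 fold change of more than 0.5 in either direction. It was met by 705 genes (3.42%), of which 355 were higher (1.72%) and 350 lower (1.7%), and the median of their adjusted p-values in limma-trend was 0.711.

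The list of AhR target genes held 11 genes, of which Cyp1a2 was too low to be tested. All 10 others had lower estimates in the knockout, their median log2 fold change being -1.27, and the libraries did not overlap for 8 of them (5.43% of all genes tested were separated in that direction). edgeR called 3 of the 10, Cyp1b1, Nqo1 and Tiparp, all lower (0.112% of all genes tested were called lower). The study itself names Ahrr, Cyp1a1 and Cyp1b1, so their direction is not independent of these samples.

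To show what these genes carry at their start, stretches upstream of the annotated start were read from RefSeq promoters (GRCm38.p6) for 4 AhR target genes and 3 other called genes whose 250 upstream bases hold the AhR core motif GCGTG on either strand (CACGC on the other). Each is written 5′ to 3′ on the strand of the gene, and the capitals mark the motif. The Cyp1b1 stretch lies at chr17:79715113-79715157 (minus strand), that of Cyp1a1 at chr9:57697539-57697583 (plus strand), that of Tiparp at chr3:65528257-65528301 (plus strand) and that of Ahrr at chr13:74292334-74292458 (minus strand). The stretches of Selenbp1 (chr3:94932882-94932930, plus strand), Cpox (chr16:58670149-58670193, plus strand) and Abca5 (chr11:110337717-110337798, minus strand) belong to called genes outside the list.
Cyp1b1: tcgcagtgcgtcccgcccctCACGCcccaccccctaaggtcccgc
Cyp1a1: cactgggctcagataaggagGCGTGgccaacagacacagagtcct
Tiparp: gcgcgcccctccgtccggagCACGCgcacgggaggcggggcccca
Ahrr: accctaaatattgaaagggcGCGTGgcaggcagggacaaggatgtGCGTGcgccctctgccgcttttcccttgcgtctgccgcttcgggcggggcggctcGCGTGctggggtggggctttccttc
Selenbp1: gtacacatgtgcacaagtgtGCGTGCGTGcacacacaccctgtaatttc
Cpox: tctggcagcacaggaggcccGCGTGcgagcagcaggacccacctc
Abca5: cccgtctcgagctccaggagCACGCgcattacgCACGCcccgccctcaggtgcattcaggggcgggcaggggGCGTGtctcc

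The Ahrr and Abca5 stretches held 3 copies each and Selenbp1 held 2 that share a base. A motif of 5 bases is common in such windows. It was present in 4475 of the 10563 tested genes that have a single RefSeq promoter entry (42.4%), in 8 of 16 called lower genes (50.0%), in 3 of 7 called higher genes (42.9%) and in 4 of 8 AhR target genes (50.0%). The shares are descriptions of letters in a window, not of binding. Among the AhR target genes the windows of Nqo1, Nfe2l2, Cyp2s1 and Ugt1a6a held no copy.

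Cyp1b1 (ENSMUSG00000024087, chromosome 17, 79701537 to 79715061), a cytochrome P450 that oxidises polycyclic hydrocarbons and steroids, was at 349, 465 and 460 CPM in AhRf/f cells and at 63.9, 33.8 and 43.7 CPM in knockout cells. Every knockout library lay far below the lowest AhRf/f library. Its log2 fold change was -3.17 (SE 0.27), the largest decrease among the called genes that had counts in both groups. With PBS the same libraries by number gave 344, 404 and 404 CPM against 59.0, 31.7 and 43.3 CPM. Nqo1, a quinone reductase, was at 173, 167 and 170 CPM in AhRf/f cells and at 61.0, 75.0 and 57.4 CPM in knockout cells, without overlap. Its log2 fold change was -1.399 (SE 0.13). Tiparp, an ADP-ribosyltransferase that represses AhR, was at 141, 156 and 136 CPM and at 58.5, 57.5 and 76.7 CPM (log2 fold change -1.17, SE 0.15). The adjusted p-values of the 3 genes by edgeR with Benjamini-Hochberg adjustment were 0.000714, 0.001196 and 0.01168. Tiparp passed no longer without replicate 1 or 2 of the knockout cells or replicate 2 of the AhRf/f cells, where its edgeR adjusted p was 0.0704, 0.0736 and 0.0685.

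The remaining AhR target genes did not pass in edgeR. Ahrr, the AhR repressor, was at 5.19, 5.25 and 4.23 CPM in AhRf/f cells and at 1.54, 0.519 and 0.747 CPM in knockout cells, without overlap. Its log2 fold change was -2.39 (SE 0.46) and its edgeR adjusted p 0.137 with Benjamini-Hochberg adjustment. Aldh3a1, an aldehyde dehydrogenase, was at 93.2, 132 and 127.5 CPM against 48.3, 41.0 and 39.7 CPM (log2 fold change -1.45, SE 0.27). Cyp1a1, the P450 most often used as a readout of AhR, was at 34.5, 21.3 and 22.6 CPM against 15.2, 6.49 and 8.56 CPM (log2 fold change -1.38, SE 0.37). Both were separated between genotypes, with edgeR adjusted p-values of 0.121 and 0.4545 after Benjamini-Hochberg adjustment. DESeq2 put Ahrr, Aldh3a1 and Cyp1a1 past the threshold, at adjusted p-values of 7.63e-05, 2.44e-05 and 0.021. Ugt1a6a and Nfe2l2, which encodes the transcription factor NRF2, were also separated, with log2 fold changes of -0.84 and -0.42, and passed in DESeq2 as well (adjusted p-values of 0.0289 and 0.0228). The reads of Ugt1a6a are uncertain because it shares exons with other Ugt1a genes, and the 4 Ugt1a genes tested summed to 47.8 ± 8.44 CPM in AhRf/f cells and 34.4 ± 5.52 CPM in knockout cells (SD, n = 3). The other 2 members, Ugt1a6b and Cyp2s1, overlapped between genotypes, with log2 fold changes of -0.12 and -0.11.

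**Figure D1:**
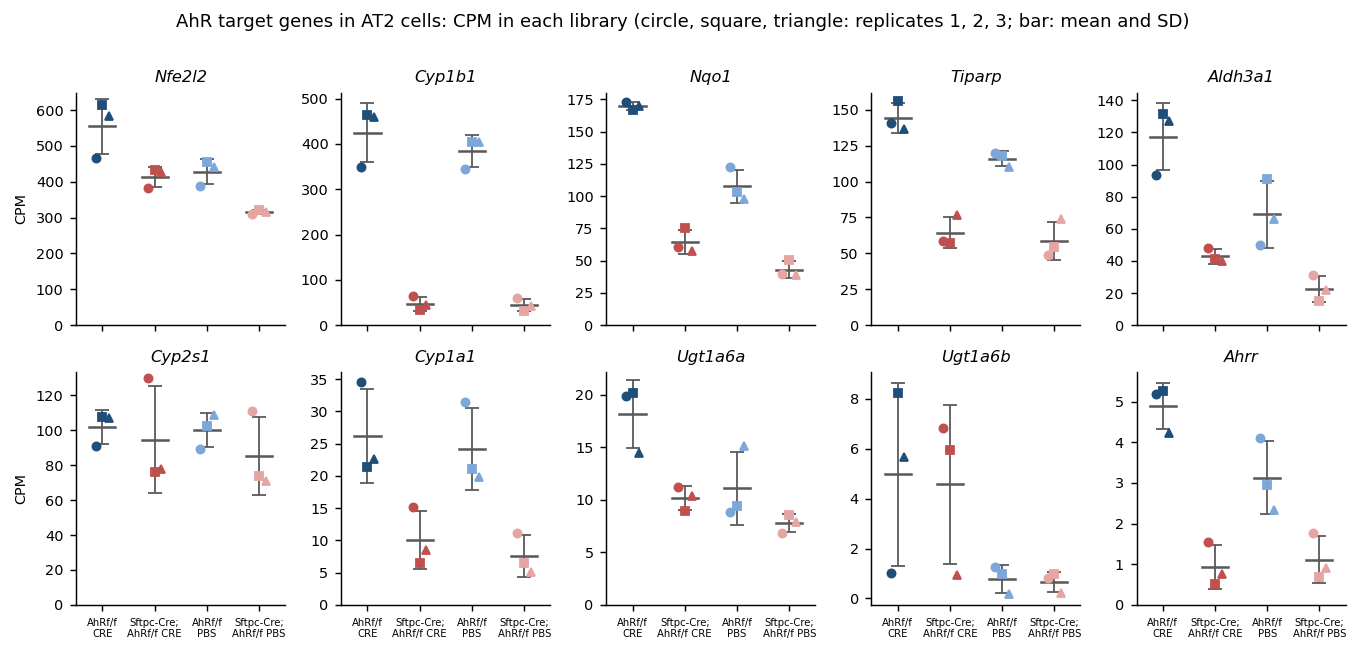
CPM of the 10 AhR target genes tested, in each of the 12 libraries, for AhRf/f and knockout (Sftpc-Cre;AhRf/f) cells with CRE and with PBS. Symbols are replicates 1 to 3, and the bar and whiskers are the mean and SD of 3 libraries. With CRE, Cyp1b1 lies at 349 to 465 CPM in AhRf/f cells and 33.8 to 63.9 CPM in knockout cells, whereas Cyp2s1 and Ugt1a6b overlap.

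Outside that list, 24 genes of xenobiotic and aldehyde metabolism were tested, and the list's median log2 fold change was -0.04. Of these edgeR called 2, both lower (0.112% of all genes tested were called lower). Ces1g, a carboxylesterase of lipid and drug esters, was at 75.3, 87.0 and 69.6 CPM in AhRf/f cells and 17.9, 14.0 and 11.1 CPM in knockout cells (log2 fold change -2.43, SE 0.24, edgeR adjusted p = 0.00147 with Benjamini-Hochberg adjustment). The Ces1 genes are near copies of each other, and the 6 that were tested summed to 150.5 ± 19.99 CPM and 67.5 ± 5.90 CPM (SD, n = 3). Adh7, an alcohol dehydrogenase that also oxidises retinol, was at 108, 92.3 and 80.6 CPM and 46.4, 43.1 and 46.0 CPM (log2 fold change -1.05, SE 0.13, edgeR adjusted p = 0.00801 with Benjamini-Hochberg adjustment). It lost the call without replicate 2 of the knockout cells (0.0736 by edgeR). Cyp4b1, a P450 of the lung, had the opposite sign, at 10.1, 7.21 and 10.9 CPM in AhRf/f cells and 25.8, 14.5 and 16.6 CPM in knockout cells. The log2 fold change of Cyp4b1 was 1.02 (SE 0.24), and it was not called by edgeR (adjusted p = 0.333 with Benjamini-Hochberg adjustment) but passed in DESeq2 (0.0093).

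Several other called genes encode enzymes of small-molecule metabolism and were lower in knockout cells. They were in no list and are described because they were called. Rdh10, which converts retinol to retinal, was at 589, 783 and 802 CPM in AhRf/f cells and 305, 292.5 and 303 CPM in knockout cells (log2 fold change -1.27, SE 0.15). Selenbp1, a methanethiol oxidase, was at 165, 196 and 192 CPM and 65.8, 48.0 and 41.3 CPM (log2 fold change -1.83, SE 0.17). Xdh, xanthine dehydrogenase of purine breakdown, was at 171, 177 and 158 CPM and 78.9, 83.4 and 86.4 CPM (log2 fold change -1.02, SE 0.11). All 3 were separated between genotypes with CRE and with PBS. Cpox, an enzyme of heme synthesis, had a smaller decrease, from 111 ± 4.85 to 71.2 ± 3.15 CPM (SD, n = 3, log2 fold change -0.64, SE 0.06). The edgeR adjusted p-values with Benjamini-Hochberg adjustment were 0.00456 for Rdh10, 0.001196 for Selenbp1, 0.00213 for Xdh and 0.00132 for Cpox.

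None of the 25 genes of the NRF2 and glutathione list was called by edgeR. Before adjustment 7 had an edgeR p below 0.05, all lower (3.01% of all genes tested were). The limma-trend criterion was met by 3, also lower (1.7% of all genes). Of the 25 genes, 24 had estimates below 0, and the median log2 fold change was -0.15. For 5 the knockout libraries were all below the AhRf/f libraries (5.43% of all genes). Gstp1, a glutathione S-transferase, was at 440, 559 and 472.5 CPM in AhRf/f cells and 289, 364 and 295 CPM in knockout cells. Gsta4, the isoform that conjugates lipid aldehydes, was at 545, 583 and 556 CPM and 392, 467 and 411 CPM. Neither overlapped between genotypes. Gstp1 had the smallest p of the list, with a log2 fold change of -0.63 (SE 0.12, edgeR adjusted p = 0.134 after Benjamini-Hochberg adjustment), and DESeq2 called it lower (adjusted p = 0.000583). With PBS both genes were called lower (0.102% of all genes were).

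Prostanoid and leukotriene synthesis was represented by a joint list of 17 genes, with a median log2 fold change of -0.17. Of these edgeR called 1, which was lower (0.112% of all genes tested were called lower). This was Ptgs2, or COX-2, the inducible enzyme that makes the precursor of prostaglandins. Ptgs2 (ENSMUSG00000032487, chromosome 1, 150100031 to 150108227) was at 879, 797 and 841 CPM in AhRf/f cells and 368, 314 and 449 CPM in knockout cells. The lowest AhRf/f library was above the highest knockout library. Its log2 fold change was -1.15 (SE 0.15, edgeR adjusted p = 0.0114 with Benjamini-Hochberg adjustment), and it lost the call without replicate 1 (0.0674) or 2 (0.056) of the knockout cells. The constitutive isoform Ptgs1 was at 93.0, 65.1 and 74.7 CPM and 47.5, 102 and 56.7 CPM, with overlap. The terminal synthases Ptges and Ptgis overlapped as well, at 30.5 to 59.7 CPM and 35.2 to 113 CPM over the 6 libraries. Ptgs2 was not the only separated gene of the list. In all, 3 of the 17 were separated, all of them lower (5.43% of all genes tested were). The lowest log2 fold change, -1.17, belonged to a gene other than Ptgs2. Only 1 gene had an edgeR p below 0.05 before adjustment (5.95% of all genes tested did).

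Among lower called genes of signalling and the cell surface, Lpar4, a receptor of lysophosphatidic acid, was at 2.76, 2.71 and 2.63 CPM in AhRf/f cells and 0.521, 0.519 and 0.551 CPM in knockout cells. Cd109, a membrane-anchored protein that binds TGF-beta, was at 19.9, 14.4 and 17.4 CPM and 5.33, 8.20 and 6.31 CPM. Arl4d, a small GTPase, was at 23.0, 22.6 and 24.9 CPM and 5.40, 9.15 and 10.8 CPM. None of these 3 genes overlapped between genotypes. Lpar4 and Cd109 passed in none of the 6 fits without 1 CRE library, with edgeR adjusted p-values (Benjamini-Hochberg) of 0.0586 to 0.102 and 0.0564 to 0.221. Arl4d kept its call only without replicate 1 or 3 of the knockout cells, and its edgeR adjusted p (Benjamini-Hochberg) was 0.109 to 0.163 in the other 4 fits. Gpc1, a heparan sulfate proteoglycan of the cell surface, had the smallest spread, at 81.9, 84.8 and 82.9 CPM and 51.1, 50.9 and 48.3 CPM (log2 fold change -0.73, SE 0.06). Arl6ip5, a membrane protein of the endoplasmic reticulum, was at 201, 223 and 228 CPM and 112, 111 and 106 CPM (log2 fold change -0.99, SE 0.08). Both kept their calls in all 6 of these fits.

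A non-coding transcript was absent from the knockout libraries. C130046K22Rik (ENSMUSG00000085154, chromosome 11, 103697724 to 103722832) had 127, 121 and 108 counts in AhRf/f cells and 0 in each knockout library, with CRE and with PBS. A count of 0 allows up to 3 counts per library, at which the transcript was at least 39.3-fold lower in CRE-treated cells. The exons of C130046K22Rik overlap those of Gosr2 on the other strand. 2610035D17Rik, also a transcript of chromosome 11, was at 9.51, 9.95 and 9.69 CPM and 3.66, 4.06 and 4.14 CPM. Chromosomes 11 and 17 held 5 called genes each (0.32% and 0.486% of their genes tested), and chromosome 7 held 0 of 1560.

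Chromosome 12, which carries Ahr, held 3 called genes (0.361% of its 832 genes tested). Agr3, a protein disulfide isomerase of airway cells, lies 0.391 Mb from Ahr and was at 1.11, 1.27 and 1.58 CPM in AhRf/f cells and 0.241, 0.205 and 0.223 CPM in knockout cells (log2 fold change -2.56, SE 0.35). Acp1, a low-weight tyrosine phosphatase, lies 4.586 Mb from Ahr and was at 88.8, 100.2 and 103 CPM and 39.7, 42.8 and 43.2 CPM (log2 fold change -1.22, SE 0.10). Adi1, an enzyme of methionine salvage, lies 6.816 Mb away and was higher in knockout cells, at 52.7, 55.3 and 55.8 CPM against 104, 111 and 114 CPM (log2 fold change 1.01, SE 0.08). Their edgeR adjusted p-values with Benjamini-Hochberg adjustment were 0.0137, 0.000689 and 0.000689, the last 2 tied with Arl6ip5 and Gm6472 of other chromosomes as the smallest of all genes. Both genotypes carry the floxed allele by design, and the part that sequence around it has in these values was not tested. Agr3 kept its call only without replicate 1 of the AhRf/f cells (edgeR adjusted p of 0.0633 to 0.0948, Benjamini-Hochberg, in the other 5 fits), while Acp1 and Adi1 kept theirs in all 6 fits without 1 CRE library.

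Of the 12 higher called genes, 11 had counts in both groups. Abca5, a lysosomal ABC transporter, was at 12.5, 12.0 and 9.62 CPM in AhRf/f cells and 30.7, 32.9 and 34.0 CPM in knockout cells (log2 fold change 1.52, SE 0.14). Gm10184, a predicted gene, was at 9.27, 7.44 and 9.89 CPM and 27.7, 48.2 and 48.8 CPM (log2 fold change 2.23, SE 0.23), with replicate 1 of the knockout cells below the other two. Scel, sciellin of the cornified envelope, was at 1.92, 1.56 and 2.31 CPM and 5.79, 4.43 and 5.02 CPM (log2 fold change 1.398, SE 0.20). These genes were separated with PBS too, with log2 fold changes of 1.78, 1.67 and 1.31. Mcam, the adhesion molecule CD146, was at 27.5, 34.7 and 40.6 CPM and 70.8, 84.8 and 72.3 CPM (log2 fold change 1.15, SE 0.16). Samhd1, a dNTP hydrolase that restricts viruses, rose from 131 ± 4.06 to 193 ± 17.1 CPM, and Ide, the insulin-degrading enzyme, from 233 ± 9.99 to 315 ± 6.42 CPM (SD, n = 3). In the single-library fits Ide and Samhd1 each kept 4 of 6 calls, the highest edgeR adjusted p (Benjamini-Hochberg) being 0.0539 for Ide and 0.0685 for Samhd1, both without replicate 2 of the AhRf/f cells. Ide also lost its call without replicate 1 of the knockout cells and Samhd1 without replicate 1 of the AhRf/f cells. Efcab7 kept its call only without replicate 2 of the knockout cells, Mcam only without replicate 3 of the AhRf/f cells, and Scel only without replicate 2 of the knockout or 3 of the AhRf/f cells. In the fits that lost a call, the edgeR adjusted p of each of these 3 genes reached at most 0.121 (Benjamini-Hochberg).

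Ion transport and dual oxidase genes had 15 tested members, and their median log2 fold change was 0.05. Of these edgeR called Car8 and Car4, both higher (0.0582% of all genes tested were called higher). Car8, a protein related to carbonic anhydrases that lacks their activity, was at 35.0, 40.4 and 44.5 CPM in AhRf/f cells and 64.2, 63.4 and 60.2 CPM in knockout cells (log2 fold change 0.65, SE 0.09, edgeR adjusted p = 0.0137 with Benjamini-Hochberg adjustment). It lost the call without replicate 1 (0.0704) or 2 (0.056) of the knockout cells or replicate 2 (0.0813) of the AhRf/f cells. Car4, a membrane-bound carbonic anhydrase, had 0 counts in each AhRf/f library and 17, 9 and 16 counts in knockout libraries, so that it was at least 4.66-fold higher. These are very few reads, and the call was lost without any single CRE library (edgeR adjusted p from 0.0736 to 0.117 with Benjamini-Hochberg adjustment). Slc26a4, the anion exchanger pendrin, was at 4.78, 7.61 and 7.99 CPM and 13.02, 21.7 and 29.4 CPM. The groups did not overlap, the log2 fold change was 1.65 (SE 0.34), and the edgeR adjusted p was 0.168 with Benjamini-Hochberg adjustment, against 0.000356 in DESeq2. Slc26a4 lies on chromosome 12 and is named by the study for this comparison.

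**Figure D2:**
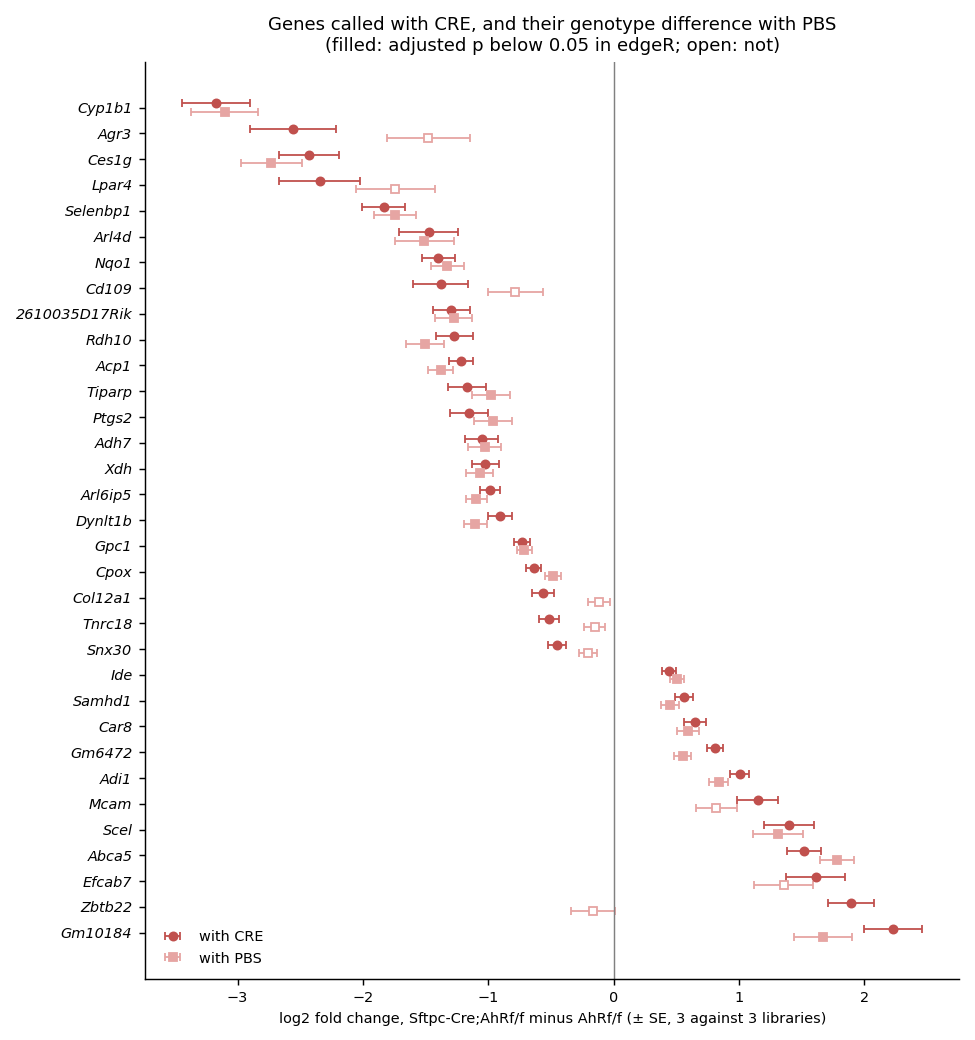
log2 fold change (knockout minus AhRf/f cells) with its SE for 33 of the 35 genes called with CRE, with CRE (circles) and with PBS (squares), from 3 against 3 libraries each. C130046K22Rik and Car4 are left out because a group had no counts. Filled symbols are past an adjusted p of 0.05 in edgeR. Cyp1b1 is at -3.17 and -3.10, while Zbtb22 is at 1.89 with CRE and -0.17 with PBS.

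The same genotypes were compared with PBS to see which differences depended on CRE. With PBS 31 genes were called (0.15%), and 25 genes were called in both, which is 71.4% of the CRE calls and 80.6% of the PBS calls. Every one of the 25 had the same direction. Of the 35 CRE calls, 34 had the same sign with PBS, and 33 were also separated between genotypes in the same direction with PBS (14% of all genes were separated with PBS in either direction). CRE and PBS libraries of the same number varied together within a genotype, with correlations of their deviations from the group mean of 0.729, 0.418 and 0.651 in AhRf/f cells and 0.589, 0.542 and 0.325 in knockout cells over 14543 genes, so the PBS values are no independent repeat of the CRE values. Of the AhR target genes, 3 were called with PBS as well, all lower (0.102% of all genes were called lower with PBS). The median log2 fold change of the list with PBS was -1.15.

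Whether the genotype difference itself changed with CRE was tested as the difference of the 2 contrasts. No gene was called by edgeR (0 of 20612, smallest adjusted p = 0.135 with Benjamini-Hochberg adjustment), while 763 had a p below 0.05 before adjustment. DESeq2 called 23 genes. With CRE and PBS libraries paired by number within genotype, edgeR called 0 genes again, and 1874 had a p below 0.05 before adjustment. Of the 10 genes called by edgeR with CRE and not with PBS, Zbtb22 was among the DESeq2 calls for the difference (adjusted p = 5.66e-11), and DESeq2 gave no adjusted p for Car4. For the other 8 neither tool showed that the genotype difference changed with CRE. Zbtb22, which encodes a zinc finger protein, had the smallest p for the difference. It was at 10.1, 6.70 and 12.1 CPM in AhRf/f cells and 31.3, 40.6 and 35.5 CPM in knockout cells with CRE, and at 40.9, 40.9 and 38.3 CPM and 35.7, 36.02 and 35.3 CPM with PBS. The low value thus belonged to CRE-treated AhRf/f cells, while the other 3 groups were near each other. Zbtb22 (chromosome 17, 33915904 to 33919325) shares exon sequence with Tapbp on the same strand, so that the division of reads between them is uncertain, and both genes summed to 277 ± 26.2 CPM in AhRf/f cells and 313.5 ± 28.7 CPM in knockout cells with CRE (SD, n = 3). Without replicate 2 or 3 of the CRE-treated AhRf/f cells, edgeR called Zbtb22 for the difference.

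Autophagy was examined in 2 ways. Of 41 core autophagy genes (initiation complex, lipid kinase, conjugation systems and receptors), none was called by edgeR. Before adjustment 3 had an edgeR p below 0.05 (5.95% of all genes tested did), and 1 met the limma-trend criterion (3.42% of all genes). Estimates were below 0 for 33, and the median log2 fold change was -0.07 (-0.0034 over all genes). Atg13, a subunit of the initiating kinase complex, was at 63.0, 77.1 and 69.2 CPM in AhRf/f cells and 55.1, 57.1 and 53.8 CPM in knockout cells. It did not overlap and had the smallest p of the list, an edgeR adjusted p of 0.478 with Benjamini-Hochberg adjustment. Uvrag, a partner of the lipid kinase complex, was at 70.1, 35.9 and 63.1 CPM and 26.4, 22.4 and 28.4 CPM with CRE. Its log2 fold change was -1.13 (SE 0.47) with CRE and 0.16 (SE 0.46) with PBS, where the groups overlapped.

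The 12 autophagy-related genes that the study names from this comparison were chosen on these samples, so that their direction here is no independent evidence. The study also followed some of them by other means. By RT-PCR of isolated AT2 cells it reports Calcoco2 significantly higher and S100a9 significantly lower with the deletion. Sh3bp4, Prkd1 and Usp10 were also selected for RT-PCR, and the study's text states no result for them. The study reports more Calcoco2 by immunostaining of lung tissue as well. Here none of the 12 genes was called by edgeR, the smallest adjusted p being 0.1499 with Benjamini-Hochberg adjustment. DESeq2 called Trim34b (adjusted p = 7.63e-05) and Prkd1 (0.00101), both higher. Before adjustment edgeR gave 6 of them a p below 0.05 in the higher direction (2.94% of all genes tested) and 3 in the lower (3.01%). By the limma-trend criterion 6 were higher (1.72% of all genes) and 5 lower (1.7%). The libraries of these 11 genes did not overlap between genotypes, as held for 11% of all genes tested. Sh3bp4, which acts in amino acid sensing, was at 49.4, 62.4 and 83.5 CPM in AhRf/f cells and 103, 97.3 and 95.5 CPM in knockout cells. Prkd1, a protein kinase, was at 6.80, 7.35 and 9.57 CPM and 11.7, 13.3 and 15.2 CPM. Usp10, a deubiquitinase, was at 49.5, 41.9 and 44.7 CPM and 63.1, 64.3 and 65.3 CPM. For these genes the log2 fold changes with CRE were 0.60, 0.76 and 0.50, and with PBS 0.51, 0.55 and -0.13. Bcl2l11, the BH3-only protein BIM, was at 61.5, 63.6 and 55.5 CPM and 38.6, 36.04 and 49.3 CPM. Calcoco2, the xenophagy receptor NDP52, was below 1 CPM in every library, at 0, 0.147 and 0.148 CPM and 0.648, 0.4645 and 0.341 CPM. Fbxl2, an F-box protein, was at 2.97, 3.45 and 2.15 CPM and 6.36, 4.37 and 5.53 CPM, while with PBS its log2 fold change was 0.10.

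Of the 12 named genes, 5 belong to the Trim cluster of chromosome 7, a family of ubiquitin ligases with antiviral members. Trim12a was at 21.6, 18.9 and 16.5 CPM in AhRf/f cells and 0, 9.41 and 0 CPM in knockout cells. With PBS it was at 23.1, 22.3 and 16.1 CPM and 0.152, 8.13 and 0 CPM. The knockout libraries of replicate 2 thus lay between the AhRf/f libraries and 0 in both treatments, and those of replicates 1 and 3 were at or near 0. Trim30d had the same order, at 4.83, 3.10 and 2.67 CPM and 0, 2.51 and 0 CPM, as did Trim5, at 7.51, 5.08 and 4.496 CPM and 0.571, 2.32 and 0.0524 CPM. Trim34a was at 16.7, 16.7 and 13.9 CPM and 4.44, 10.999 and 2.65 CPM, and Trim34b at 0.747, 0.442 and 0.349 CPM and 5.16, 2.80 and 3.53 CPM. Trim34a and Trim34b are near copies, and their sum was 16.3 ± 1.76 CPM in AhRf/f cells and 9.86 ± 3.82 CPM in knockout cells (SD, n = 3). Neighbours in the cluster such as Trim12c, at 16.3 to 22.7 CPM and 18.0 to 23.0 CPM, and Trim21, at 10.98 to 11.8 CPM and 10.3 to 12.2 CPM, overlapped. Over the 11 genes tested the median log2 fold change was -0.90, with 8 estimates below 0. Of the 11, 5 were separated lower (5.43% of all genes) and 1 higher (5.56%). None of the 11 genes of the cluster that were tested was called by edgeR, while Trim34b passed in DESeq2 as given above. Before adjustment 3 had an edgeR p below 0.05 (5.95% of all genes tested), and 5 met the limma-trend criterion (3.42%). The spread among knockout libraries was wide (SE 1.99 on the log2 scale for Trim12a).

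**Figure D3:**
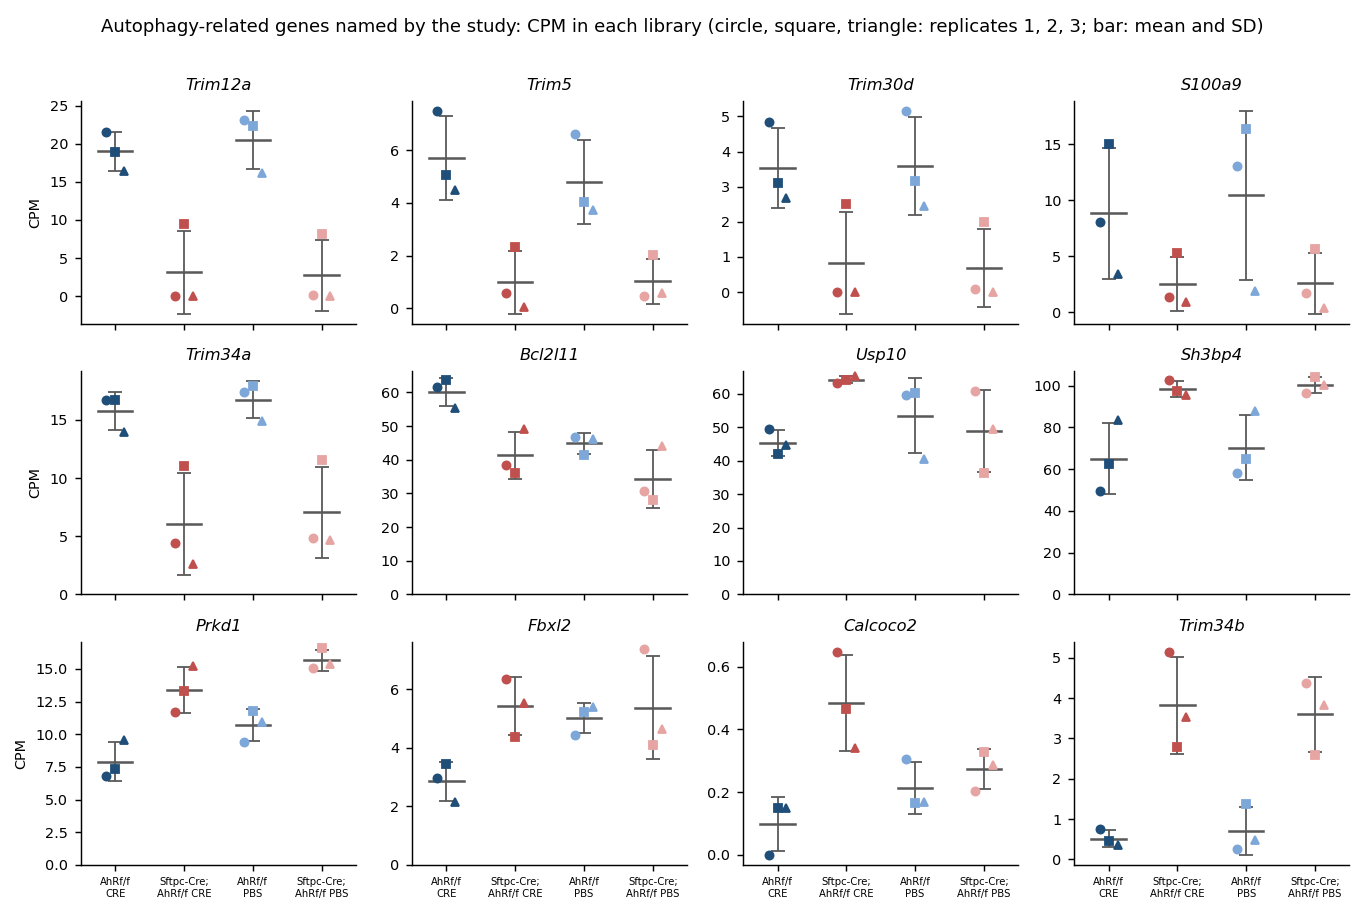
CPM of the 12 autophagy-related genes named by the study, in each of the 12 libraries, ordered by log2 fold change with CRE. Symbols are replicates 1 to 3, and the bar and whiskers are the mean and SD of 3 libraries. In Trim12a, Trim5, Trim30d and Trim34a the square of the knockout cells (replicate 2, 9.41 CPM for Trim12a with CRE) sits apart from replicates 1 and 3 in both treatments.

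The last of the 12 genes, S100a9, is an abundant protein of neutrophils. It was at 8.02, 15.0 and 3.396 CPM in AhRf/f cells and 1.38, 5.26 and 0.878 CPM in knockout cells, and the groups overlapped. The list of 12 neutrophil markers includes S100a9 itself and its partner S100a8. All 12 had estimates below 0, their median log2 fold change being -1.23, and none was called (smallest edgeR adjusted p = 0.757 with Benjamini-Hochberg adjustment). Before adjustment 1 had an edgeR p below 0.05 (3.01% of all genes did in the lower direction). The limma-trend criterion was met by 3 (1.7% of all genes in that direction). Their summed level was 42.8 to 74.6 CPM in AhRf/f cells and 10.99 to 35.4 CPM in knockout cells, without overlap. Because S100a9 is part of this sum, the sum is not separate from its value. The libraries with more S100a9 were those with more S100a8, at 8.99, 11.4 and 4.11 CPM and 3.35, 4.63 and 0.380 CPM. Ly6g, a defining neutrophil marker, was at 0.0547 to 0.322 CPM over the 6 libraries, and Camp, Ngp and Cxcr2 were at 0 in replicate 3 of the knockout cells. With PBS the sums overlapped, at 22.04 to 76.0 CPM and 9.62 to 29.1 CPM. What part the neutrophil markers have in the value of S100a9 was not tested.

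Genes of motile cilia, 31 tested, lay on the other side. None was called by edgeR, while 11 had an edgeR p below 0.05 before adjustment, all higher (2.94% of all genes did so in that direction). Of the 31 estimates 30 were above 0, and the median log2 fold change was 0.52. The limma-trend criterion was met by 12, all higher (1.72% of all genes did so in that direction). Foxj1, the master regulator of ciliated cells, was at 42.3, 45.0 and 59.1 CPM in AhRf/f cells and 113, 66.7 and 65.4 CPM in knockout cells. Rsph4a, a radial spoke protein, was at 6.86, 8.11 and 9.78 CPM and 22.6, 11.1 and 13.2 CPM. The highest library was replicate 1 of the knockout cells in both genes, and the summed level of the list was 284 to 413 CPM and 419 to 670.5 CPM, with that library at 670.5 CPM. The same library had the lowest summed level of AT2 markers, 8336 CPM against 11610 to 15490 CPM in the other 5. Whether a share of ciliated cells has a part in the cilium values was not tested. The cell cycle list gave 19 of 20 estimates above 0, a median log2 fold change of 0.37 and no edgeR call. Before adjustment 5 of its genes had an edgeR p below 0.05, all higher (2.94% of all genes in that direction). The limma-trend criterion was met by 2, also higher (1.72%). Cdk1, the mitotic kinase, was at 16.6, 18.6 and 28.8 CPM and 35.4, 39.0 and 25.3 CPM.

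**Figure D4:**
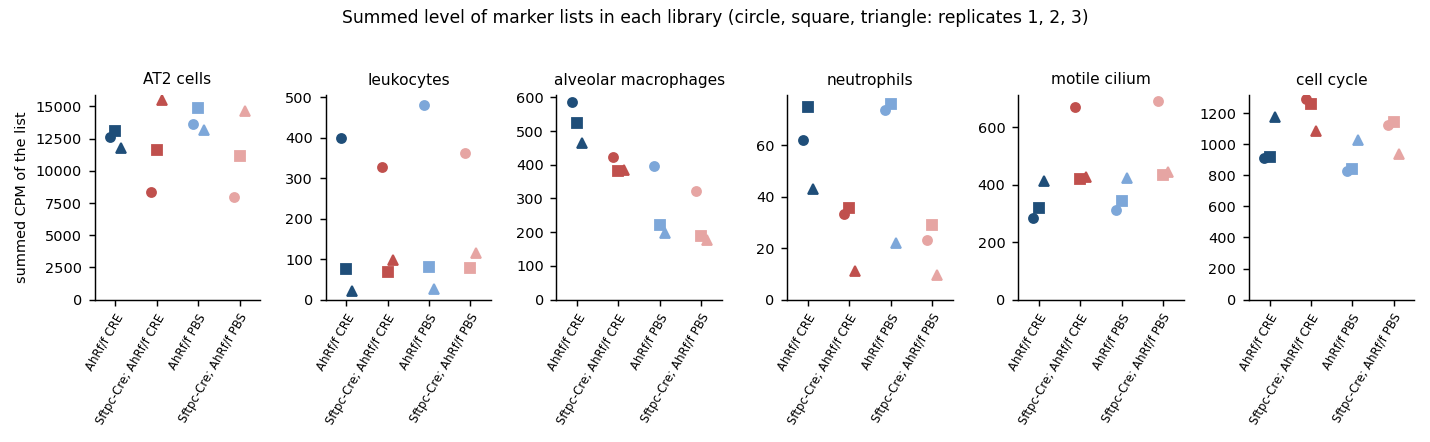
Summed CPM of 6 gene lists in each of the 12 libraries, on linear axes from 0. Symbols are replicates 1 to 3 of AhRf/f and knockout (Sftpc-Cre;AhRf/f) cells with CRE and PBS. With CRE the neutrophil markers do not overlap (42.8 to 74.6 CPM against 10.99 to 35.4 CPM), and leukocyte markers are highest in replicate 1 of both genotypes (399.5 and 327 CPM).

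None of 25 chemokine and cytokine genes, 18 TGF-beta pathway genes and 27 interferon response genes was called, and their median log2 fold changes were -0.05, 0.03 and 0.15. Before adjustment 2, 1 and 3 of them had an edgeR p below 0.05 (5.95% of all genes tested did). The limma-trend criterion was met by 2, 2 and 3 (3.42% of all genes). The summed level of the interferon response genes was 351.6 to 390.3 CPM in AhRf/f cells and 400.7 to 483.6 CPM in knockout cells, without overlap, while with PBS the sums overlapped. Tgfb2, a TGF-beta ligand, was at 27.1, 22.7 and 30.0 CPM in AhRf/f cells and 48.8, 38.9 and 36.2 CPM in knockout cells, separated but not called (edgeR adjusted p = 0.526 with Benjamini-Hochberg adjustment). Cxcl10, a chemokine of T cells, was at 16.7, 14.1 and 12.9 CPM and 19.1, 19.7 and 29.5 CPM, and Ifit3, an interferon-induced protein, at 31.6, 26.9 and 24.5 CPM and 64.7, 37.8 and 48.3 CPM. Neither was called, though the groups did not overlap. AT2 markers had a median log2 fold change of -0.05, AT1 markers 0.14, the transitional alveolar state 0.12 and club and basal cells -0.11. None had an edgeR call, and 1, 2, 2 and 1 genes had an edgeR p below 0.05 before adjustment (5.95% of all genes tested). The limma-trend criterion was met by 1, 2, 0 and 1 (3.42% of all genes). Col4a3, a basement membrane collagen of AT1 cells, was separated, at 24.9, 39.0 and 45.6 CPM and 61.5, 84.3 and 72.0 CPM (log2 fold change 0.99, SE 0.23, edgeR adjusted p = 0.323 with Benjamini-Hochberg adjustment). Leukocyte, alveolar macrophage, endothelial, fibroblast and erythroid markers had no call, with medians of 0.06, -0.36, -0.01, -0.18 and -0.43, the last from 2 of 6 genes that could be tested. Of the 14 alveolar macrophage markers 12 had estimates below 0, and their summed level did not overlap with CRE, at 463.1 to 585.4 CPM in AhRf/f cells and 380.3 to 422.4 CPM in knockout cells, but did with PBS, at 196.3 to 395.8 CPM and 177.1 to 323 CPM. Their part in other values was not tested.

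**Figure D5:**
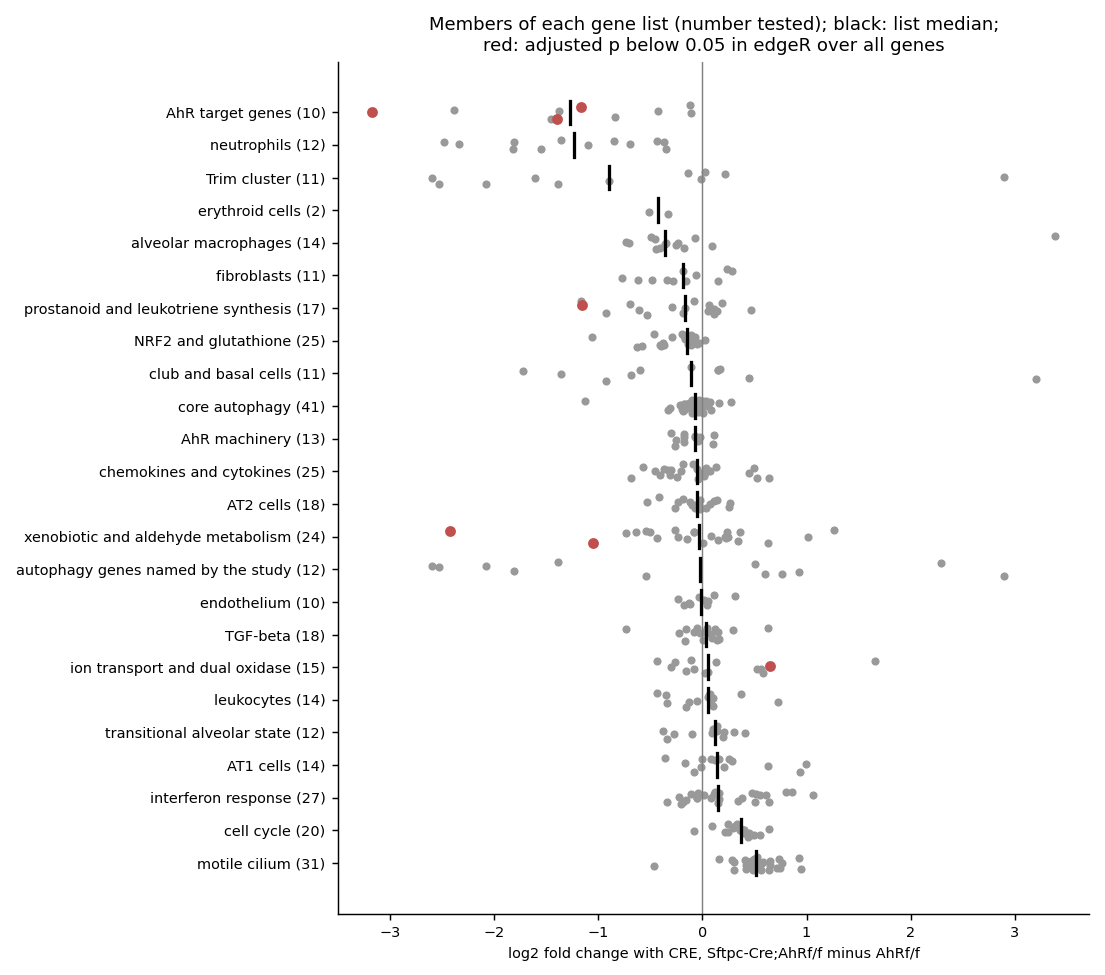
log2 fold change with CRE (knockout minus AhRf/f cells) of every tested member of each gene list, with the number tested in brackets. The black line is the list median and red points are past an adjusted p of 0.05 in edgeR over all genes. Car4 is not drawn because it had no counts in AhRf/f cells. The AhR target genes have the lowest median, -1.27, and the motile cilium genes the highest, 0.52.

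How far the calls rested on single libraries was examined by leaving out each CRE library in turn. In all 6 fits 18 of the 35 genes kept their call, and these were C130046K22Rik, Cyp1b1, Ces1g, Selenbp1, Nqo1, 2610035D17Rik, Rdh10, Acp1, Xdh, Arl6ip5, Dynlt1b, Gpc1, Cpox, Gm6472, Adi1, Abca5, Zbtb22 and Gm10184. Of these 18 genes, 2610035D17Rik and Zbtb22 lost the call when only the 6 CRE libraries were fitted. Dynlt1b, a dynein light chain of a family of near copies, had a summed family level of 134 ± 7.74 CPM in AhRf/f cells and 94.5 ± 6.89 CPM in knockout cells (SD, n = 3). Gm6472 is a pseudogene, at 181 to 188 CPM and 295 to 347 CPM. Col12a1, a fibril-associated collagen, Tnrc18 and the sorting nexin Snx30 had small decreases (log2 fold changes of -0.57, -0.52 and -0.45), and their edgeR adjusted p without a single library reached 0.201, 0.25 and 0.245 with Benjamini-Hochberg adjustment. Col12a1 passed in none of the 6 fits, Tnrc18 only without replicate 1 of either genotype and Snx30 only without replicate 1 of the knockout cells. With PBS their log2 fold changes were -0.12, -0.15 and -0.21 and none was called. The number of edgeR calls was lowest without replicate 2 of the AhRf/f cells, at 21.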

How the data were processed

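RNA-seq libraries of cultured AT2 cells were made with a stranded mRNA kit. According to the study's methods and the submitters' processing notes, the authors aligned reads to GRCm38 (mm10) with STAR 2.7.2b and took gene counts with Salmon, and Partek is also named. The deposited counts are whole numbers per gene that were not normalized, and how whole numbers were reached is not given in the sources used here. The deposited FPKM values stand beside the counts and served only as an alternative. All 55450 gene IDs were found in GENCODE M21, from which symbols and positions were taken.

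Groups came from the sample labels. Genes were filtered with filterByExpr (minimum count 10), leaving 20612, and scaled with TMM. Contrasts of 4 group means over all 12 libraries were tested with edgeR 4.0.16 (quasi-likelihood, Benjamini-Hochberg at 0.05) under R 4.3.3, and the study's criterion with limma 3.58.1 (limma-trend, log2 CPM, prior count 2, p below 0.05, absolute log2 fold change above 0.5). SEs are the log2 fold change divided by the root of F. Figures were drawn with Python 3.11.15. A count of 0 allows up to 3 counts (0.0373 to 0.0410 CPM per CRE library), which covers counting error only. The scripts were tested on simulated data.

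Alternatives were DESeq2 1.42.0, limma-voom, limma-trend with adjusted p, RLE and library size scaling, other filters, only the 6 CRE libraries, log2(FPKM + 1), a prior count of 0.5, a replicate block and leaving out libraries. The libraries, gene lists and named genes were chosen with earlier results of these data known. Named genes are Ahr, AhR target and machinery genes, genes the study names here, called genes, for every other list at most 4 members that passed a test or its 2 most abundant ones, and the 5 smallest p-values of the difference between CRE and PBS. Atg13, Gsta4, Foxj1, Sftpc, Sftpb, Scgb1a1, S100a8, Ly6g, Ptgs1, Ptges, Ptgis, Camp, Ngp, Cxcr2, Trim12c and Trim21 were named after their values were seen.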

Additional observations from a re-analysis of the deposited data

Results flagged for a closer look

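Among the genes named by rule, which include those with the smallest p for the difference of the contrasts, 3 had genotypes separated in opposite directions with CRE and with PBS. For Adam1a, a metalloproteinase, the difference of the log2 fold changes (CRE minus PBS) was -4.18. AhRf/f and knockout cells were at 13.4, 27.9 and 15.6 CPM and 3.70, 3.37 and 4.56 CPM with CRE, and at 2.69, 4.13 and 13.6 CPM and 21.0, 23.0 and 31.4 CPM with PBS. It shares exons with Mapkapk5 on the same strand, so its reads are uncertain. For the pseudogene Ppp4r1l-ps the difference was -2.38, and for Zbtb22, given above, 2.06. The edgeR adjusted p of the difference, with Benjamini-Hochberg adjustment, was 0.135 for Zbtb22 and 0.9535 for both Adam1a and Ppp4r1l-ps. DESeq2 called all 3 for the difference, at adjusted p-values of 5.66e-11, 4.75e-06 and 5.62e-05. Without replicate 3 of the PBS-treated AhRf/f cells edgeR called Adam1a, and without replicate 2 or 3 of the CRE-treated AhRf/f cells it called Zbtb22.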

How the results depend on the processing

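The 35 edgeR calls with CRE became 174 with DESeq2, 0 with a replicate block in the 6 CRE libraries (776 genes at an unadjusted p below 0.05, smallest adjusted p 0.0969), 21 to 30 without 1 CRE library, and 19 without replicate 1 of all groups, an alternative chosen after seeing the data for their leukocyte markers, which shared 13 genes with the 35. In the 7 other fixed alternatives that changed the test, scaling, filter or samples the count was 25 to 38. The 25 came from the fit on only the 6 CRE libraries, with 5 genes higher and 20 lower. Of these 25 genes, 20 were among the 35, and Ptgs2, Zbtb22 and 2610035D17Rik were among the calls lost. The 31 calls with PBS became 243 with DESeq2 and 0 with a replicate block (1470 at an unadjusted p below 0.05). The 705 genes of the study's criterion became 246 on log2(FPKM + 1), 1221 without a filter, 445 with 1 CPM in 3 libraries and 36 with an adjusted p. They were 567 with a replicate block, 657 to 890 without 1 CRE library and 768 without replicate 1 of all groups. The difference between CRE and PBS had 23 calls in DESeq2, 0 with the replicate block within genotype and 0 to 2 without 1 library. Deviations of same-numbered AhRf/f and knockout libraries with CRE had correlations of 0.413, -0.029 and 0.087. The first was the highest of all pairs between genotypes, but not every library correlated best with its own number. The labels do not say whether same-numbered libraries of the genotypes share a preparation, and these few correlations cannot decide it. The cause of the loss under the block was not tested. Over the single-library fits the log2 fold change ran from -0.606 to 0.453 for Ugt1a6b (0.36 without replicate 3 of the knockout cells) and from -0.402 to 0.043 for Cyp2s1 (0.017 without replicate 3 of the knockout cells). The AhR target genes had 2 to 4 calls and medians of -1.30 to -1.11, and Ahr ran from -0.26 to -0.04. No other value of the 79 genes followed turned sign. With 3 libraries a group, small differences in genes of few counts, such as Car4 and Calcoco2, could not be measured well.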
